A study of Mus musculus with 4 samples.

Results

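The genes described here encode the nuclear subunits of oxidative phosphorylation, the last stage of mitochondrial respiration. They were chosen by name from the platform annotation, as every gene whose symbol starts with Nduf, Uqcr or Atp5, is one of Sdha to Sdhd, or starts with Cox4 to Cox8. That gave 84 of the 12393 genes on the array: 39 for complex I, 4 for complex II, 8 for complex III, 16 for complex IV and 17 for complex V. The brightest probe set, by mean scaled signal over the arrays, stood for each gene. A mean scaled signal of at least 100 was reached by 82 of them, within 8036 genes of the whole array. The rule also takes in 5 complex I assembly factors (Ndufaf genes), which are not subunits of the finished complex. Genes were put into complexes by symbol alone. Every Nduf gene was counted under complex I, Ndufa4 among its accessory subunits, so counts by complex follow the names.

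Complexes I and II pass electrons from NADH and succinate to ubiquinone, complex III passes them on to cytochrome c, and complex IV passes them to oxygen. Complexes I, III and IV pump protons out of the matrix as they work, and complex V (ATP synthase) uses the returning protons to make ATP. In the intestine, absorptive cells (enterocytes) spend much of this ATP on transporting nutrients and packaging dietary fat. Most of these complexes combine a catalytic core with many small accessory subunits, and the genes below are ordered by those roles.

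The study measured intestinal mucosa of males from the inbred strains A/J and C57BL/6J, the second of which is widely used as a strain prone to obesity on a fatty diet. The mice were 10 weeks old, per the labels, and had eaten a high-fat or a low-fat diet for 2 weeks. The 4 groups were A/J high-fat, A/J low-fat, C57BL/6J high-fat and C57BL/6J low-fat, each of 6 mice, and no other genotype or agent is named in the labels. RNA of 2 mice per group was pooled and run on 1 Affymetrix Mouse Expression Array 430A, so no group has a replicate and no ratio between a pair of arrays has a test.

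The value 100 was the floor to which any lower scaled signal was raised. All 13 enterocyte markers on the array had a mean scaled signal of at least 100, and their summed scaled signal lay between 197270 and 215910 on every array. Of 11 skeletal or cardiac muscle markers, 8 were under that floor on every array. Other lists did vary between arrays: the summed signal of 11 T cell markers was 4446 on high-fat and 3305 on low-fat in A/J, and 7370 on high-fat and 13219 on low-fat in C57BL/6J. Summed exocrine pancreas markers were 2674 on high-fat and 97911 on low-fat in A/J, and 155830 on high-fat and 98188 on low-fat in C57BL/6J. The 5′ control probe set for 18S ribosomal RNA, a measure of ribosomal carry-over into the label, read 84.4 on high-fat and 218 on low-fat in A/J, and 1675 on high-fat and 11010 on low-fat in C57BL/6J. In bulk RNA, fewer cells of a type and less RNA per cell cannot be told apart.

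Oxidative phosphorylation genes varied little across the 4 arrays, about as little as other bright genes. The highest array exceeded the lowest by a median of 1.31-fold over the 82 measured genes, against 1.42-fold over all measured genes. The median was 1.35-fold over the 1143 genes with a mean signal of at least 2000, which include 71 of the 82. The chosen probe sets of all 84 genes together took 3.40% of the total scaled signal on high-fat and 3.31% on low-fat in A/J, and 3.25% on high-fat and 3.73% on low-fat in C57BL/6J. The array that stood apart was C57BL/6J low-fat: 53 of the 82 genes (64.6%) had their highest signal there, against 26.2% of all measured genes and 34.4% of the genes with a mean of at least 2000. The other arrays were highest for 12 genes (A/J high-fat), 11 genes (A/J low-fat) and 6 genes (C57BL/6J high-fat), where all measured genes gave 26.7%, 27.5% and 19.6%. With all probe sets of a gene averaged, C57BL/6J low-fat was highest for 52 of the 82 genes, against 25% of all genes. The measured probe sets that did not stand for a gene peaked there in 34 of 61 cases (55.7%), against 22.4% over all genes. C57BL/6J low-fat also carried the highest 18S signal and the highest T cell markers, whose part in the result was not tested.

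**Figure D1:**
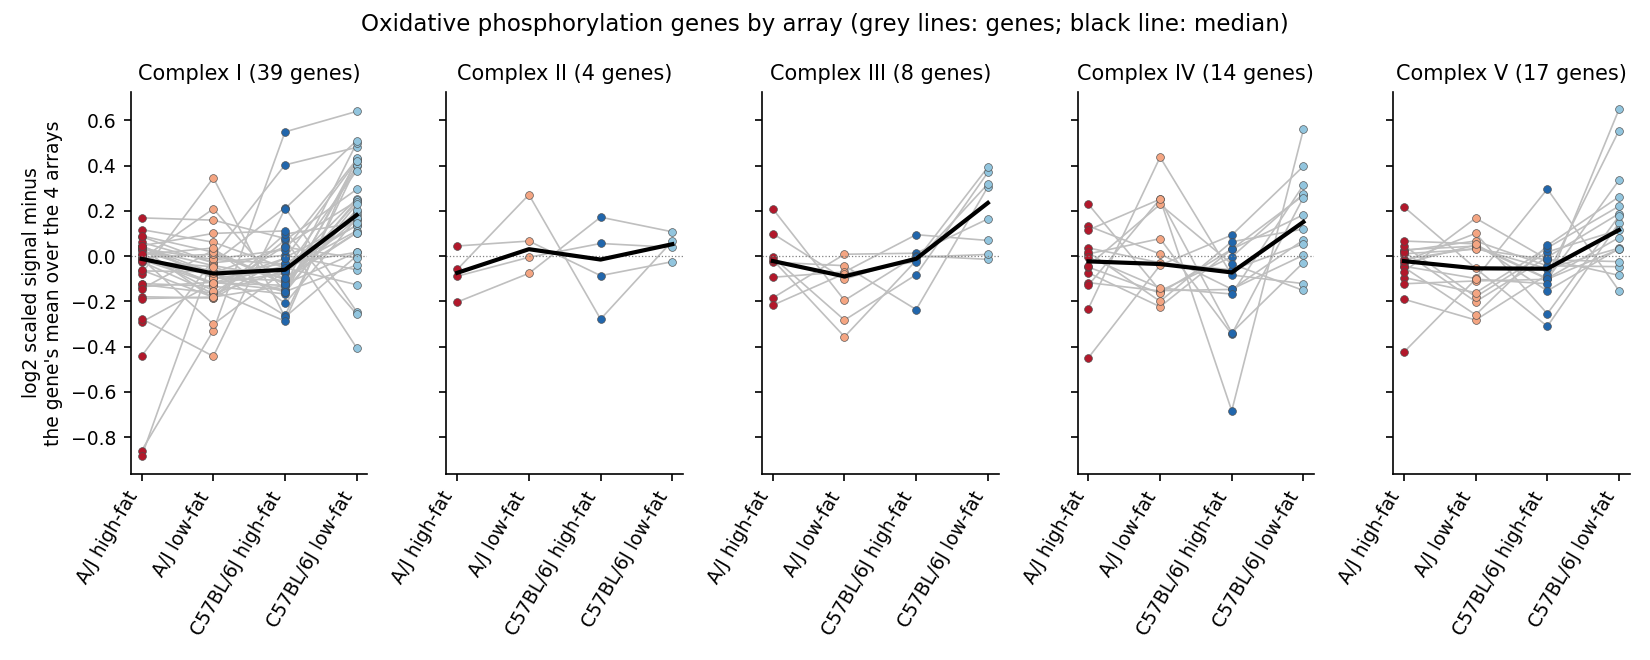
Log2 scaled signal of each measured gene minus its own mean over the 4 arrays (y axis) on each array (x axis), by complex, with grey lines for genes and a black line for their median. The C57BL/6J low-fat array lies above the others for most genes of complexes I, III, IV and V, and not for complex II.

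The promoters of respiratory genes often carry sites for nuclear respiratory factor 1 (NRF1), for ETS proteins such as GA-binding protein, and for YY1, so the 250 bases before the annotated start were searched for an exact match to each motif on both strands. The letters were CCGGAAGT for ETS and AAGATGGC for YY1, while the NRF1 consensus, with its middle base left free, is seen in the capitals of the Cox6a1 and Sdha windows shown. No stretch matched more than 1 of these motifs in those windows. RefSeq windows (build GRCm38.p6) were matched for 70 of the 84 genes, in 75 windows. NRF1 letters were found in 16% of those windows, in 11 genes, against 3.74% of 32851 windows of all genes. ETS letters were found in 4%, against 2.88%, and YY1 letters in 1.33%, against 1.56%. Of the 11 genes with the NRF1 letters, 6 were highest on C57BL/6J low-fat, beside 53 of all 82. All 3 genes with the ETS letters (Atp5h, Uqcr11 and Uqcrh) were highest there. Shown are 4 windows, all on the minus strand and written 5′ to 3′ along the gene, with matches in capitals: Cox6a1 at chr5:115348959-115349208, with 2 NRF1 matches, Uqcr11 at chr10:80406822-80407071, with an ETS match, Atp5h at chr11:115419920-115420169, with both, and Sdha at chr13:74350241-74350490, with 3 NRF1 matches. They were picked, with their signals known, as bright genes whose chosen sets peaked on C57BL/6J low-fat (the first 3) or on C57BL/6J high-fat (Sdha). A match is a description of letters and not of a bound site.
Cox6a1: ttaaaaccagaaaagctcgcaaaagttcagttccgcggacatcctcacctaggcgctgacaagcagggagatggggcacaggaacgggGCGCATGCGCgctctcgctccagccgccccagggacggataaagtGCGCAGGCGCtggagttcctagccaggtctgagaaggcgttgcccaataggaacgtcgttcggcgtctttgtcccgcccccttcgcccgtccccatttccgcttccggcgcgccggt
Uqcr11: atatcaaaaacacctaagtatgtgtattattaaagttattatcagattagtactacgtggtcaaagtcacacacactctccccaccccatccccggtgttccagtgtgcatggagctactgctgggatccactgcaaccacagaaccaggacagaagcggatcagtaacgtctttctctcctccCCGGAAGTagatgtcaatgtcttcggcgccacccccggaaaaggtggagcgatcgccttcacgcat
Atp5h: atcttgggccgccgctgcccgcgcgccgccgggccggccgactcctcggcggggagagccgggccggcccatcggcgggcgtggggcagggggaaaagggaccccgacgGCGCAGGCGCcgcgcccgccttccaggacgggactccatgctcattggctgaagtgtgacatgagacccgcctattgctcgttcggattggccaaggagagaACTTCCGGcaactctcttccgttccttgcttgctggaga
Sdha: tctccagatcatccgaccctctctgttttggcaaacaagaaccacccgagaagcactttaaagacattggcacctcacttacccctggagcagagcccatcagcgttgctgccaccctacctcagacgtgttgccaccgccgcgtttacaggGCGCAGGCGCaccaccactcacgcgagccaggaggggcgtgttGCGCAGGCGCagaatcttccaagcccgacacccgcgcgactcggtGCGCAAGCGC

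The first question of the design is what the high-fat diet did in each strain. In A/J mice the genes stayed close to their low-fat levels: the median log2 ratio, high-fat over low-fat, was 0.03 (-0.01 without scaling of the arrays), beside 0.01 over all measured genes. It was above 0 for 48 genes and below 0 for 34, where all genes gave 50.9% and 48.3%. None of the 82 was at least 1.5-fold higher on A/J high-fat, against 4.99% of all genes, and 2 were at least 1.5-fold lower, against 4.7%: Ndufb1 and Cox4i2, both with the A/J high-fat signal under the floor. In C57BL/6J mice the median log2 ratio was -0.20, beside -0.01 over all genes and -0.02 over genes with a mean of at least 2000 (-0.35 without scaling, where all genes were at -0.15). It was above 0 for 16 genes and below 0 for 66, where all genes gave 48.1% and 50.9%. None was at least 1.5-fold higher on C57BL/6J high-fat, against 5.13%, and 8 were at least 1.5-fold lower, against 4.63% of all genes. The typical gene was thus 1.15-fold lower on C57BL/6J high-fat than on C57BL/6J low-fat.

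Directions by gene differed between strains. On the high-fat arrays, 41 genes were higher for A/J but lower for C57BL/6J, 9 the reverse, 25 lower in both strains and 7 higher in both. Over all measured genes those shares were 23.7%, 20.9%, 26.7% and 26.8%, and opposite directions made up 44.6%. The A/J log2 diet ratio minus the C57BL/6J one had a median of 0.25 and was above 0 for 62 of the 82 genes, beside a median of 0.02 over all genes. With 1 array a group this difference has no test. Over both strains together, a limma fit of strain plus diet, whose error is the strain-by-diet difference moderated over all genes, called 0 of 82 genes for diet at an adjusted p under 0.05, against 0.61% of all genes (0.423% higher and 0.187% lower on high-fat), and 2 at an unadjusted p under 0.05, against 9.35%.

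**Figure D2:**
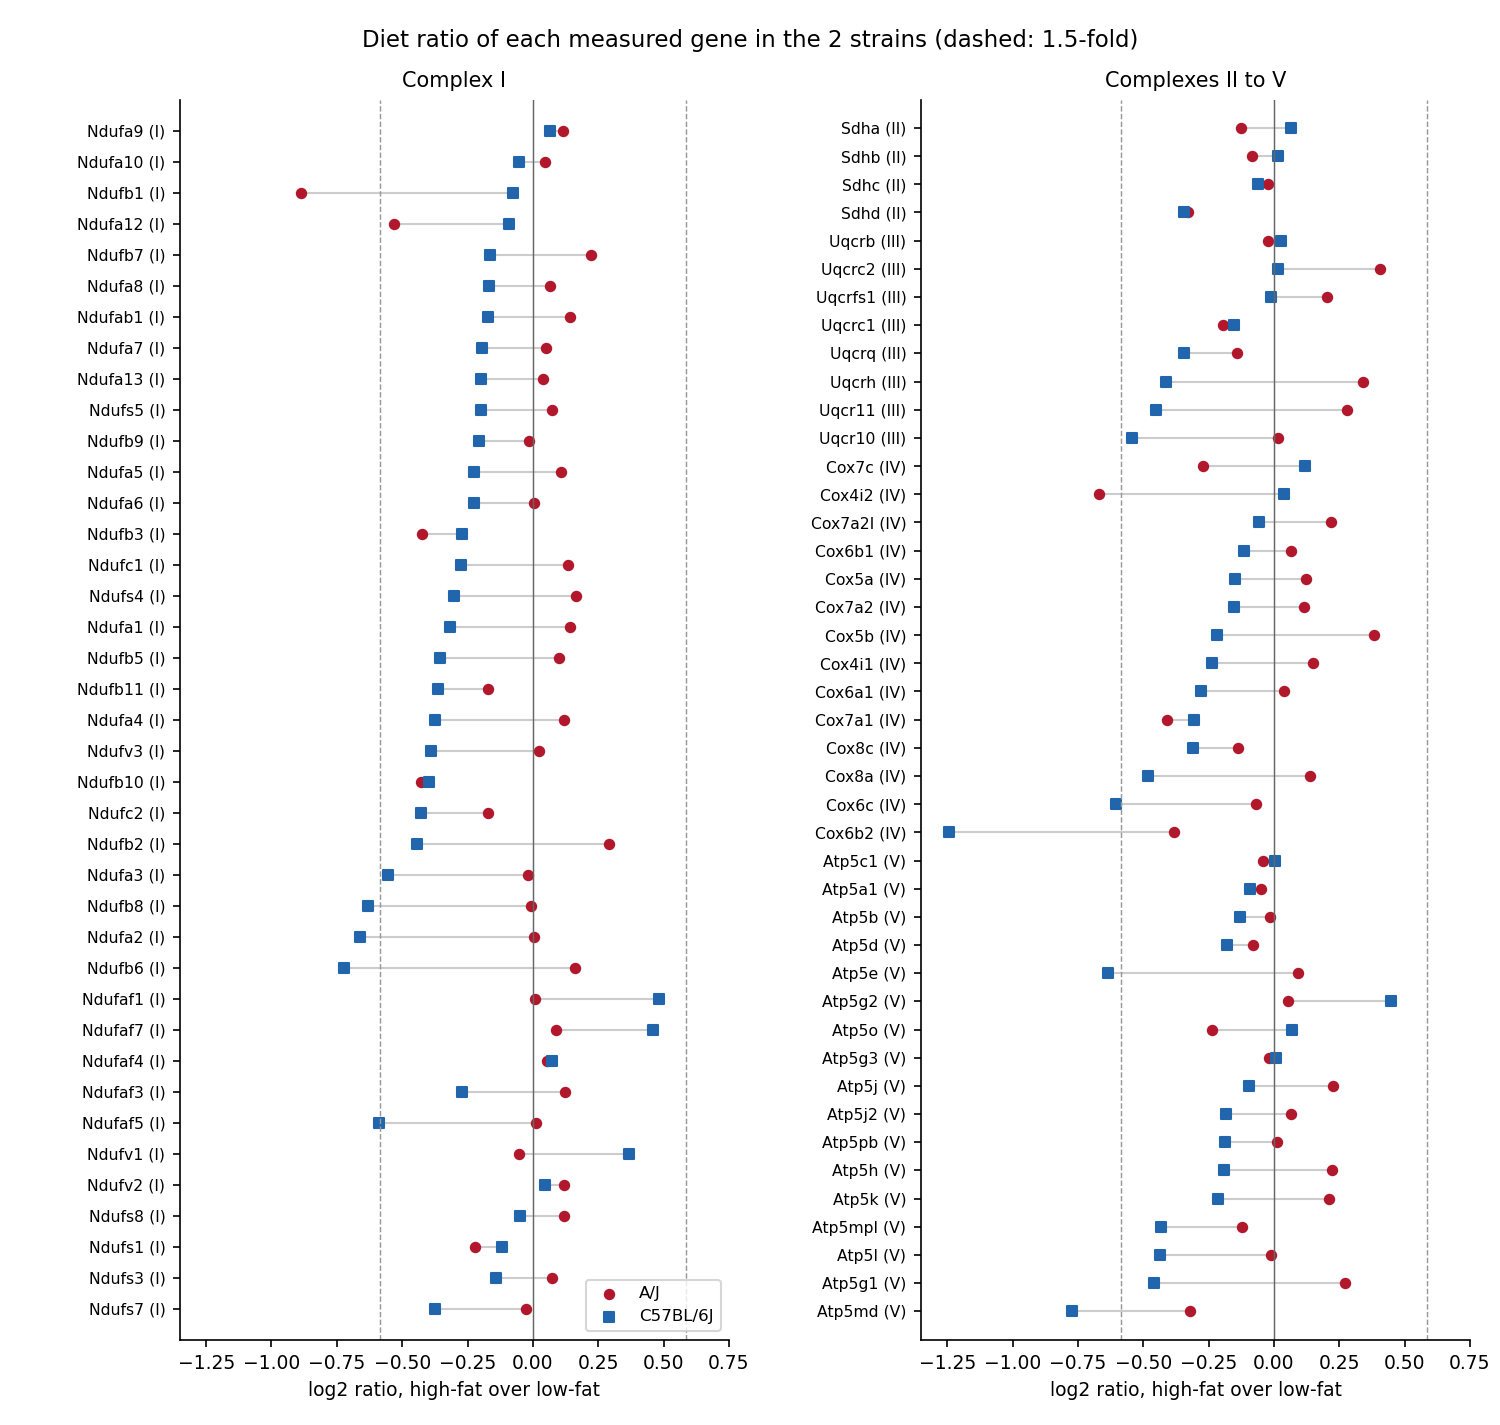
Log2 ratio of scaled signal, high-fat over low-fat (x axis), for each measured gene (y axis, complex in brackets), with circles for A/J and squares for C57BL/6J. Squares lie left of 0 for 66 of 82 genes and circles for 34; the A/J values of Ndufb1 and Cox4i2 and the C57BL/6J value of Cox6b2 are bounds set by the floor of 100.

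In complex I, by the probe sets that stood for the genes, most of the 28 accessory subunits peaked on C57BL/6J low-fat, and most of the 6 core subunits did not. The accessory subunits' median log2 diet ratio was 0.05 for A/J, against -0.27 for C57BL/6J, where 27 of 28 genes were below 0, and 25 of 28 (89.3%) had their highest signal on C57BL/6J low-fat. The core subunits, which hold the flavin and iron-sulfur clusters, had medians of 0.02 for A/J and -0.08 for C57BL/6J, and 2 of the 6 (33.3%) were highest on that array. With all probe sets of a gene averaged, 24 of 28 accessory subunits (85.7%) and 2 of 6 core subunits (33.3%) were highest there. The other measured sets alone did not show the contrast: 9 of 20 for accessory subunits (45%) and 6 of 10 for core subunits (60%) were highest there. Those sets cover only 14 accessory and 4 core genes. Whether these 2 groups of genes differ was not tested.

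Among the accessory subunits, Ndufb6, a membrane-arm subunit, read 3515 on high-fat and 3146 on low-fat in A/J, and 2866 on high-fat and 4725 on low-fat in C57BL/6J. It was 1.65-fold lower on high-fat than on low-fat in C57BL/6J. Ndufa2, a subunit of the matrix arm, read 2277 on high-fat and 2271 on low-fat in A/J, and 1987 on high-fat and 3140 on low-fat in C57BL/6J. Both had 3 arrays close together and the C57BL/6J low-fat array above them. Ndufb8, another membrane-arm subunit, showed the same shape, with 3895 on high-fat and 3914 on low-fat in A/J, and 4052 on high-fat and 6274 on low-fat in C57BL/6J, a ratio of 1.55-fold between the C57BL/6J arrays. Ndufb2 read 5587 on high-fat and 4566 on low-fat in A/J, and 5379 on high-fat and 7310 on low-fat in C57BL/6J, which made it the gene of complex I with the highest A/J log2 diet ratio (0.29), ahead of Ndufb7 (0.22). Ndufb10 ran the other way in A/J, with 2018 on high-fat and 2715 on low-fat in A/J, and 2795 on high-fat and 3685 on low-fat in C57BL/6J, so that it was lower on high-fat in both strains. Ndufb3 was the accessory subunit that peaked on A/J low-fat, with 3323 on high-fat and 4455 on low-fat in A/J, and 2908 on high-fat and 3508 on low-fat in C57BL/6J. Ndufa9 and Ndufa10 peaked on A/J high-fat with highest-to-lowest spreads of at most 1.11-fold.

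The core subunits differed in which array was highest, and so did probe sets of 1 gene. Ndufv1, the subunit that binds NADH, read 4308 on high-fat and 4474 on low-fat in A/J, and 4509 on high-fat and 3493 on low-fat in C57BL/6J, lowest on the array where most accessory genes peaked. Of its other sets, 1 was also lowest there and 1 was highest there, that one with 3377 on high-fat and 3452 on low-fat in A/J, and 3678 on high-fat and 3957 on low-fat in C57BL/6J. Its partner Ndufv2 read 6754 on high-fat and 6226 on low-fat in A/J, and 6736 on high-fat and 6517 on low-fat in C57BL/6J. Both other sets of Ndufv2 were highest on C57BL/6J low-fat, one of them with 3657 on high-fat and 3131 on low-fat in A/J, and 4402 on high-fat and 5799 on low-fat in C57BL/6J. Ndufs1, which carries iron-sulfur clusters, read 2492 on high-fat and 2906 on low-fat in A/J, and 2254 on high-fat and 2446 on low-fat in C57BL/6J, and was highest on A/J low-fat. Ndufs7, next to the ubiquinone site, had the lowest C57BL/6J log2 diet ratio of the core, -0.38, with 4973 on high-fat and 5071 on low-fat in A/J, and 4280 on high-fat and 5553 on low-fat in C57BL/6J. Ndufs3 and Ndufs8 had C57BL/6J log2 diet ratios of -0.14 and -0.05.

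The 5 assembly factors had scaled signals between 137 and 812 and mixed directions. Ndufaf1, which helps to build the membrane arm, read 337 on high-fat and 335 on low-fat in A/J, and 317 on high-fat and 227 on low-fat in C57BL/6J, and had the highest C57BL/6J log2 diet ratio of the complex at 0.48. Ndufaf7, a methyltransferase, followed at 0.46, with 170 on high-fat and 159 on low-fat in A/J, and 189 on high-fat and 137 on low-fat in C57BL/6J. Ndufaf5 ran opposite, with 201 on high-fat and 199 on low-fat in A/J, and 194 on high-fat and 292 on low-fat in C57BL/6J, a C57BL/6J log2 diet ratio of -0.59. Ndufaf3 and Ndufaf4 had C57BL/6J log2 diet ratios of -0.27 and 0.07.

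Complex II, whose 4 subunits also work in the tricarboxylic acid cycle, did not share the pattern: 0 of 4 genes were highest on C57BL/6J low-fat, and the median log2 diet ratio was -0.11 for A/J and -0.02 for C57BL/6J. Sdha, the flavoprotein, read 5988 on high-fat and 6538 on low-fat in A/J, and 7765 on high-fat and 7425 on low-fat in C57BL/6J, and Sdhb, the iron-sulfur subunit, also peaked on C57BL/6J high-fat. A second Sdha set peaked on A/J low-fat instead. On the low-fat diet its log2 ratio, A/J over C57BL/6J, was 0.28, against -0.18 for the chosen set. Of the membrane anchors, Sdhd read 7475 on high-fat and 9399 on low-fat in A/J, and 6420 on high-fat and 8155 on low-fat in C57BL/6J, lower on high-fat in both strains by log2 ratios of -0.33 and -0.35. The set that stood for Sdhc, the other anchor, had log2 diet ratios of -0.02 for A/J and -0.06 for C57BL/6J. Its second set gave 0.51 for A/J and 0.01 for C57BL/6J, with 3635 on high-fat and 2545 on low-fat in A/J, and 1977 on high-fat and 1961 on low-fat in C57BL/6J.

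In complex III, 5 of the 8 genes were highest on C57BL/6J low-fat. Uqcrh, the hinge protein that helps cytochrome c1 meet cytochrome c, read 4789 on high-fat and 3785 on low-fat in A/J, and 4781 on high-fat and 6362 on low-fat in C57BL/6J. Uqcr11, a small subunit whose promoter is printed above, read 5407 on high-fat and 4458 on low-fat in A/J, and 5124 on high-fat and 7009 on low-fat in C57BL/6J. In both, the high-fat arrays of the strains nearly coincided, while the low-fat arrays lay on either side of them. Uqcr10 had a C57BL/6J log2 diet ratio of -0.54 and Uqcrq of -0.34. Of the large core proteins, Uqcrc2 read 9542 on high-fat and 7209 on low-fat in A/J, and 8266 on high-fat and 8175 on low-fat in C57BL/6J, the highest A/J log2 diet ratio of all 82 genes at 0.40. A second Uqcrc2 set ran the other way in A/J, at -0.37, with 6824 on high-fat and 8837 on low-fat in A/J, and 6419 on high-fat and 6534 on low-fat in C57BL/6J. Uqcrc1 was slightly lower on high-fat in both strains, at -0.19 for A/J and -0.15 for C57BL/6J. Uqcrfs1, the Rieske iron-sulfur protein, and Uqcrb, which lies by the ubiquinone site, had C57BL/6J log2 diet ratios of -0.01 and 0.03. A second, less bright Uqcrb set gave -0.52 for A/J and -0.43 for C57BL/6J. It read 1885 on high-fat and 2697 on low-fat in A/J, and 2453 on high-fat and 3315 on low-fat in C57BL/6J.

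Complex IV has tissue-specific isoforms, each with a ubiquitous partner. The heart and muscle forms were mostly near or under the floor: Cox6a2 read 112 on high-fat and 85.4 on low-fat in A/J, and 94.5 on high-fat and 12.9 on low-fat in C57BL/6J. Cox8b read 15.4 on high-fat and 5.71 on low-fat in A/J, and 10.9 on high-fat and 17.5 on low-fat in C57BL/6J. These are the 2 genes that missed the minimum mean signal of 100, and muscle markers were likewise mostly under the floor. Cox7a1, the heart and muscle form of subunit 7a, was well above it, with 1356 on high-fat and 1801 on low-fat in A/J, and 1975 on high-fat and 2439 on low-fat in C57BL/6J. High-fat was the lower diet in either strain, and A/J the lower strain on either diet. Cox4i2, known from lung, read 97.0 on high-fat and 159 on low-fat in A/J, and 111 on high-fat and 108 on low-fat in C57BL/6J, at least 1.59-fold lower on high-fat in A/J. Cox6b2, a testis form, read 147 on high-fat and 191 on low-fat in A/J, and 65.5 on high-fat and 237 on low-fat in C57BL/6J, at least 2.37-fold lower on high-fat in C57BL/6J, where 0.672% of all genes were 2-fold lower. Its limma diet effect was -0.81 on the log2 scale (SE 0.23), with an adjusted p of 0.203. Cox8c, another testis form, was 510 on high-fat and 560 on low-fat in A/J, and 372 on high-fat and 461 on low-fat in C57BL/6J.

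The ubiquitous subunits of complex IV mostly peaked on C57BL/6J low-fat, by small margins. Cox6c read 17276 on high-fat and 18102 on low-fat in A/J, and 13504 on high-fat and 20534 on low-fat in C57BL/6J, 1.52-fold lower on high-fat in C57BL/6J. Cox8a, the partner of Cox8b, read 14930 on high-fat and 13582 on low-fat in A/J, and 13340 on high-fat and 18629 on low-fat in C57BL/6J. Cox4i1 read 11924 on high-fat and 10750 on low-fat in A/J, and 12816 on high-fat and 15120 on low-fat in C57BL/6J. All 3 peaked on C57BL/6J low-fat, as did Cox6a1, Cox6b1 and Cox7a2, with C57BL/6J log2 diet ratios of -0.28, -0.11 and -0.15. The sets that stood for Cox5a and Cox5b peaked on A/J high-fat, that of Cox5b with 20140 on high-fat and 15457 on low-fat in A/J, and 15515 on high-fat and 18054 on low-fat in C57BL/6J. The other 4 measured sets of Cox5b were all highest on C57BL/6J low-fat, among them one with 15140 on high-fat and 15601 on low-fat in A/J, and 15387 on high-fat and 15661 on low-fat in C57BL/6J. Of the other 2 Cox5a sets, 1 was highest on C57BL/6J low-fat and 1 on A/J low-fat. Cox7a2l, a factor that joins complexes III and IV into supercomplexes, read 2138 on high-fat and 1840 on low-fat in A/J, and 2208 on high-fat and 2295 on low-fat in C57BL/6J. Both its other sets, about as bright, peaked on C57BL/6J high-fat, with C57BL/6J log2 diet ratios of 0.36 and 0.07. Cox7c, whose brightest probe set read only 169 to 219, had log2 diet ratios of -0.27 for A/J and 0.12 for C57BL/6J.

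In complex V, by the sets that stood for the genes, the catalytic F1 head was flat apart from its epsilon subunit. Atp5a1 and Atp5b, the alpha and beta subunits that make ATP, spread over at most 1.11-fold across the arrays: Atp5b read 13349 on high-fat and 13498 on low-fat in A/J, and 12203 on high-fat and 13369 on low-fat in C57BL/6J. The gamma and delta subunits Atp5c1 and Atp5d had C57BL/6J log2 diet ratios of 0.00 and -0.18. Other measured sets of these genes varied more. That of Atp5d ran from 5482 on A/J low-fat to 6974 on C57BL/6J low-fat. That of Atp5a1 ran from 7900 on C57BL/6J high-fat to 9674 on A/J high-fat. A dim set of Atp5c1 ran from 146 on C57BL/6J high-fat to 209 on A/J high-fat. Atp5e, the epsilon subunit, read 3444 on high-fat and 3232 on low-fat in A/J, and 3714 on high-fat and 5774 on low-fat in C57BL/6J, so that C57BL/6J low-fat stood above 3 arrays close together. It was 1.55-fold lower on high-fat in C57BL/6J and 1.79-fold lower in A/J on the low-fat diet.

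Outside the F1 head, Atp5md, a small membrane subunit, read 1872 on high-fat and 2340 on low-fat in A/J, and 2307 on high-fat and 3937 on low-fat in C57BL/6J. It was 1.71-fold lower on high-fat in C57BL/6J and lower on high-fat in A/J too, and its limma diet effect was -0.55 (SE 0.205, adjusted p 0.405). The genes Atp5g1, Atp5g2 and Atp5g3 encode the same mature c-ring protein, and their patterns differed. Atp5g1 read 8665 on high-fat and 7178 on low-fat in A/J, and 6010 on high-fat and 8253 on low-fat in C57BL/6J. Atp5g2 read 3674 on high-fat and 3539 on low-fat in A/J, and 4655 on high-fat and 3409 on low-fat in C57BL/6J, with the highest C57BL/6J log2 diet ratio of the complex at 0.45. Atp5g3 spread over 1.04-fold at most. Atp5l, Atp5k, Atp5j2 and Atp5mpl, further small membrane subunits, and Atp5h and Atp5j of the stalk all peaked on C57BL/6J low-fat, with C57BL/6J log2 diet ratios between -0.44 and -0.10. The stalk subunits Atp5o and Atp5pb peaked on A/J low-fat and A/J high-fat.

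**Figure D3:**
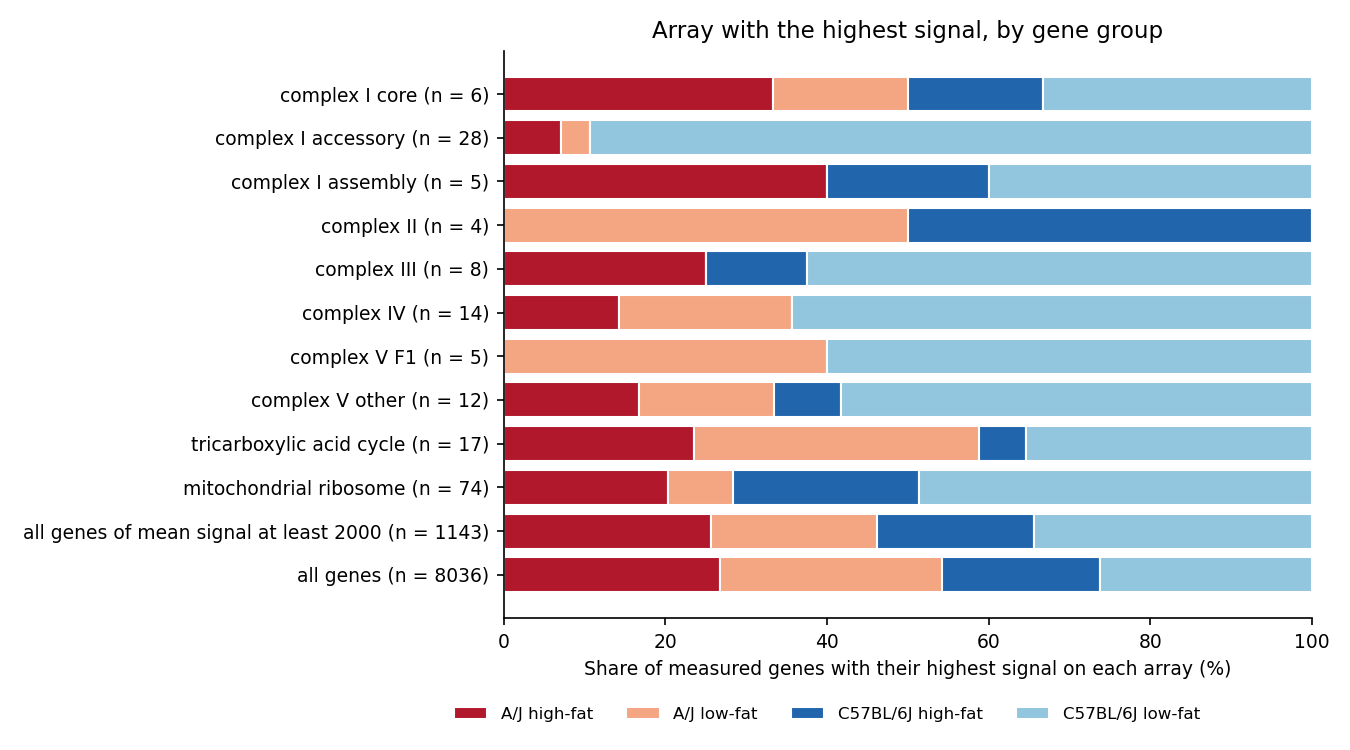
Share of measured genes (x axis, percent) whose highest signal fell on each array, for each group of genes (y axis). The C57BL/6J low-fat share is 89.3% for complex I accessory subunits and 0% for complex II, beside 26.2% for all genes and 34.4% for genes with a mean signal of at least 2000.

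The second question of the design is how the strains differ on each diet. On the low-fat diet the median log2 ratio, A/J over C57BL/6J, was -0.22, beside 0.02 over all genes (-0.04 without scaling of the arrays, where all genes were at 0.20). It was above 0 for 20 genes and below 0 for 62, where all genes gave 52% and 47.7%. None was at least 1.5-fold higher in A/J, against 10.9% of all genes, and 9 were at least 1.5-fold lower, against 9.23%: Ndufa12, Ndufs4, Ndufb2, Ndufb6, Ndufb8, Uqcr11, Uqcrh, Atp5e and Atp5md. On the high-fat diet the median was 0.04, beside 0.04 over all genes (0.32 for both without scaling). It was above 0 for 51 genes and below 0 for 31, where all genes gave 54.4% and 44.9%. None was at least 1.5-fold higher in A/J, against 8.37%, and 2 were at least 1.5-fold lower, against 6.88%: Ndufa12 and Ndufb1, at 2.65-fold and at least 2.44-fold, beside 2.38% of all genes at 2-fold or more. The share of genes 1.5-fold lower in A/J was thus near that of the whole array on the low-fat diet. The median shift was found on the diet whose comparison uses the C57BL/6J low-fat array.

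**Figure D4:**
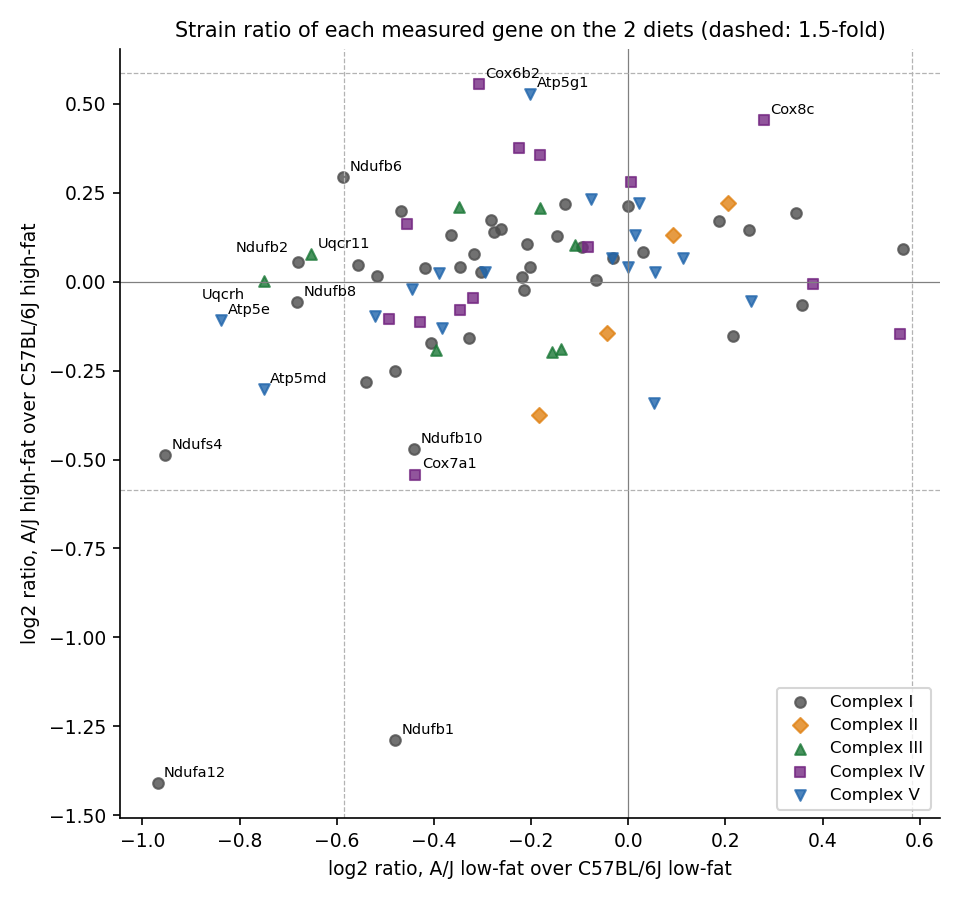
Log2 ratio of scaled signal, A/J over C57BL/6J, on the low-fat diet (x axis) and on the high-fat diet (y axis) for each measured gene, with marker shapes for complexes. Most points lie left of 0 and around 0 vertically, with Ndufa12 and Ndufb1 (a bound on the high-fat diet) far below the rest.

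Over both diets, limma called 2 of 82 genes for strain at an adjusted p under 0.05, both lower in A/J, against 7.52% of all genes (3.83% higher and 3.68% lower in A/J). Both are accessory subunits of complex I. Ndufa12, which sits on the matrix arm, read 2588 on high-fat and 3739 on low-fat in A/J, and 6872 on high-fat and 7316 on low-fat in C57BL/6J. Its limma strain effect was -1.19 on the log2 scale (SE 0.204, adjusted p 0.0035), and with all its probe sets averaged the effect was -0.45 with an adjusted p of 0.152. Ndufb1, of the membrane arm, read 52.7 on high-fat and 185 on low-fat in A/J, and 244 on high-fat and 258 on low-fat in C57BL/6J, with signals of at most 258 on any array. Its limma effect was -0.88 (SE 0.227, adjusted p 0.0343) with the A/J high-fat value set to the floor. A fit with 3 arrays leaves no residual degree of freedom for both factors, so arrays were left out in a fit with strain as its only factor. That fit called 0 of the 82 genes with all 4 arrays and 0 with any 1 left out. The strain effect without 1 array ran from -1.45 to -0.92 for Ndufa12 and from -1.33 to -0.44 for Ndufb1. Ndufs4, an accessory subunit whose loss in mice gives a model of Leigh syndrome, read 1617 on high-fat and 1441 on low-fat in A/J, and 2265 on high-fat and 2790 on low-fat in C57BL/6J. The limma strain effect of Ndufs4 was -0.72 (SE 0.206, adjusted p 0.0545). The other 2 sets of Ndufs4 were dim: 1 was higher in A/J on either diet, with 219 on high-fat and 247 on low-fat in A/J, and 207 on high-fat and 205 on low-fat in C57BL/6J. With all its sets averaged, the effect was -0.28 with an adjusted p of 0.321. At an unadjusted p under 0.05 there were 6 genes, all lower in A/J, against 21.5% of all genes, the others being Atp5md, Cox7a1 and Ndufb10, with adjusted p-values of 0.155, 0.165 and 0.195.

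Several genes were read by more than 1 probe set, which allows a check within the gene. Of 42 genes with at least 2 measured probe sets, 6 held sets that ran in opposite directions in some comparison with 1 of them at least 1.5-fold: Cox5b, Ndufa12, Ndufs4, Ndufs8, Uqcr10 and Uqcrq. The same count was not made over all genes, so whether 6 is many or few cannot be said. Of the 3 measured sets of Ndufa12, a second one read 3881 on high-fat and 3134 on low-fat in A/J, and 5486 on high-fat and 6156 on low-fat in C57BL/6J, also lower in A/J. The last one did not separate the strains, with 3697 on high-fat and 2528 on low-fat in A/J, and 2686 on high-fat and 3004 on low-fat in C57BL/6J. For Uqcr10, a small subunit of complex III, the set that stood for the gene read 4808 on high-fat and 4757 on low-fat in A/J, and 4159 on high-fat and 6055 on low-fat in C57BL/6J. Another set read 420 on high-fat and 450 on low-fat in A/J, and 2410 on high-fat and 3292 on low-fat in C57BL/6J. The third was under the floor in A/J alone, with 76.5 on high-fat and 69.3 on low-fat in A/J, and 1545 on high-fat and 1991 on low-fat in C57BL/6J, at least 19.9-fold lower in A/J on the low-fat diet. The 3 sets thus gave strain gaps of very different size for 1 gene. The part of sequence differences between the strains under the probes was not tested.

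**Figure D5:**
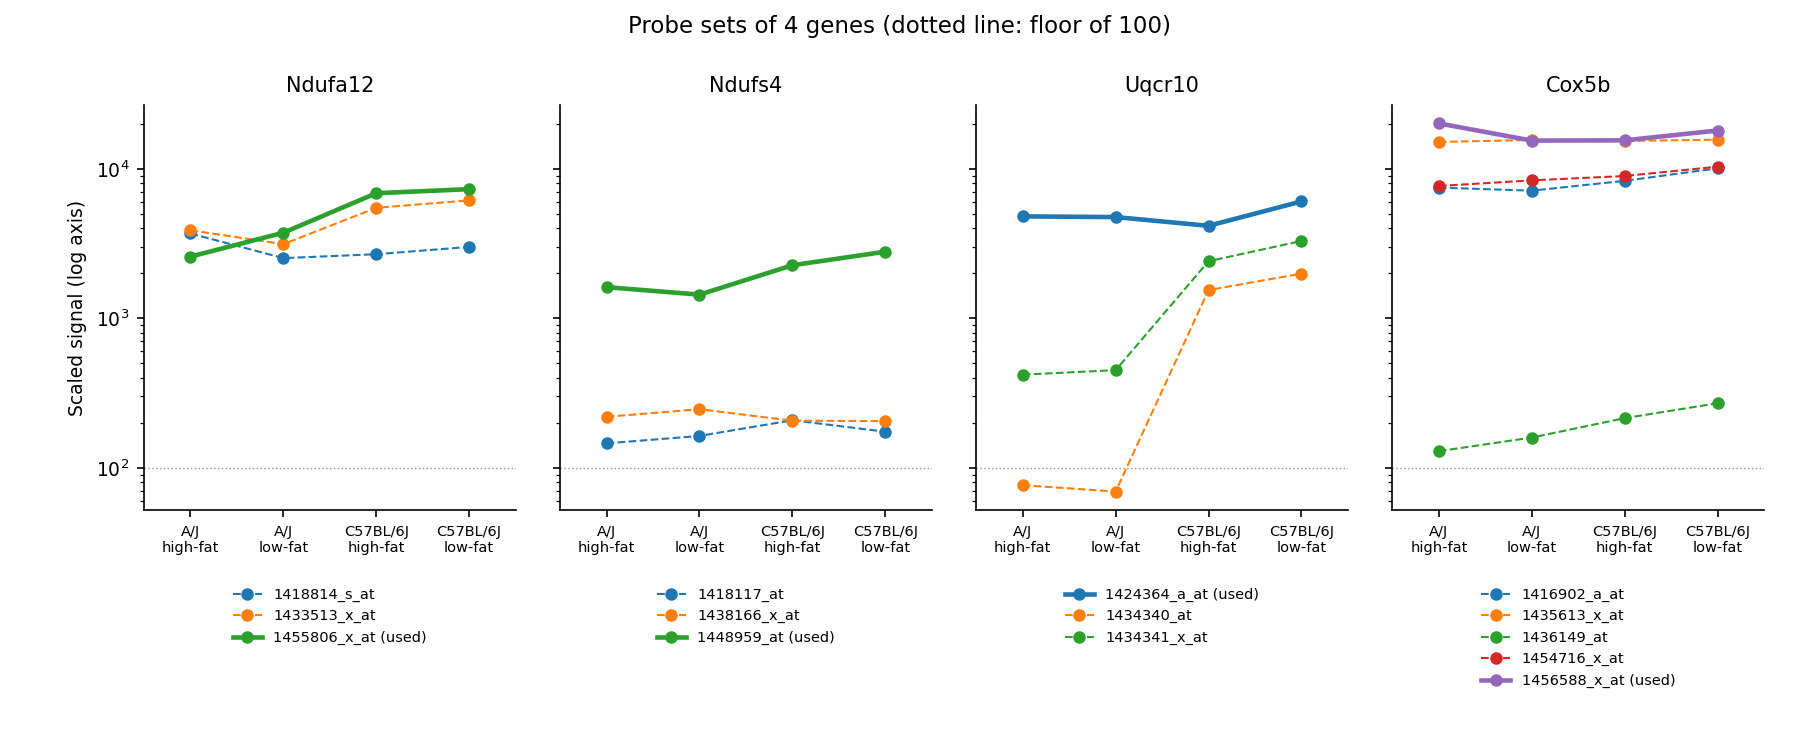
Scaled signal on a log axis (y axis) of each measured probe set of Ndufa12, Ndufs4, Uqcr10 and Cox5b on the 4 arrays (x axis), with a thick line for the set that stood for the gene and a dotted line at the floor of 100. The 2 unused Uqcr10 sets separate the strains while the used one does not.

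Neighbouring mitochondrial genes were taken from lists written with earlier results of these data known. Of 38 measured assembly and partner proteins, limma called 2 as higher and 1 as lower in A/J, a share near the 7.52% of all genes. Sco2, a copper chaperone for complex IV, read 3001 on high-fat and 3152 on low-fat in A/J, and 946 on high-fat and 847 on low-fat in C57BL/6J (limma strain effect 1.78, adjusted p 0.000157). Nnt, the proton-driven transhydrogenase for which C57BL/6J is known to carry a deletion, read 1176 on high-fat and 1206 on low-fat in A/J, and 507 on high-fat and 392 on low-fat in C57BL/6J (effect 1.42, adjusted p 0.000919). Sdhaf1, an assembly factor of complex II, fell in A/J (effect -0.75, adjusted p 0.0449). Cytochrome c (Cycs), which carries electrons from complex III to complex IV, read 14220 on high-fat and 11030 on low-fat in A/J, and 14820 on high-fat and 17190 on low-fat in C57BL/6J, and was thus also highest on C57BL/6J low-fat.

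Of 17 tricarboxylic acid cycle enzymes, limma called 0 for strain and 6 (35.3%) were highest on C57BL/6J low-fat, near the 34.4% of bright genes. Of 74 mitochondrial ribosomal proteins, limma called 0 as higher and 2 as lower in A/J, Mrpl55 (effect -1.09) and Mrpl27 (effect -0.80), and 36 (48.6%) were highest on C57BL/6J low-fat, above the 26.2% of all genes and the 34.4% of bright genes. Of 31 genes of mitochondrial biogenesis, 2 were called as higher in A/J, Phb2 (effect 0.95) and the fatty acid receptor Ppara (effect 0.91), and 1 as lower, the chaperonin Hspe1 (effect -0.79), while 7 (22.6%) were highest on C57BL/6J low-fat. Both shares of this list were near those of all genes (7.52% and 26.2%). For diet, limma called 0 genes of these 4 lists. Cytosolic ribosomal proteins, a list added after the array pattern had been seen, also peaked there, in 27 of 41 genes (65.9%), with a median log2 ratio of -0.44 in A/J over C57BL/6J on the low-fat diet. Genes of a cytosolic machine thus peaked on that array about as often as the respiratory genes. By comparison, 15 targets of PPAR-alpha, the receptor that switches on fat oxidation, had median log2 diet ratios of 0.81 for A/J and 0.85 for C57BL/6J. Limma called 4 of them as higher on high-fat, against 0.423% of all genes. For strain it called 8 of the 15 as higher in A/J, against 3.83% of all genes. On C57BL/6J low-fat, 12 of the 15 had their lowest signal, against 27.4% of all genes.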

How the data were processed

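Per the labels, the deposited values are a linear intensity per probe set from Microarray Suite 5.0; the labels name no scaling target. Each array was multiplied by a factor (2.80 for A/J high-fat, 2.72 for A/J low-fat, 3.41 for C57BL/6J high-fat and 3.08 for C57BL/6J low-fat) to a mean of 500 over non-control probe sets, trimmed by 2% at each end. Signals under 100 were set to 100 and log2 was taken, so a ratio against a floored signal is a bound. Of 22690 probe sets, 64 were controls, and the platform annotation gave 20380 with 1 gene, 691 with several and 1555 with none; only those with 1 gene were used. The 84 genes had 156 such probe sets, and 8 more that list other genes as well were left out. All 84 matched RefSeq (GRCm38.p6) by gene number, with 0 symbols changed. Genes whose scaled signal averaged 100 or more were fitted in limma 3.58.1 (R 4.3.3) with strain and diet and 1 residual degree of freedom, so the error comes from the strain-by-diet difference, moderated over 8036 genes, with Benjamini-Hochberg adjustment over them. On simulated data this fit recovered 89 of 100 genes changed 2-fold by diet and 77 of 100 changed by strain, with 12 and 11 false calls. Those data were drawn with the variances that the fit itself assumes and with no strain-by-diet effect. The counts therefore check the fit and do not measure recovery on the real arrays. With 1 pool a group, p-values do not measure the spread between mice, and precision is limited by having 4 arrays. Genes named were the extremes of each complex and comparison, every gene at least 1.5-fold apart in any comparison, those past the limma thresholds, tissue isoforms with their partners and genes with opposed probe sets. The genes and lists were chosen with earlier results of these data known. Normalisation, floor, filter, probe set rule and left-out arrays were varied. Other steps used Python 3.11.15.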

Additional observations from a re-analysis of the deposited data

Results flagged for a closer look

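In 11 genes the diet ratios of the strains ran in opposite directions and lay at least 1.5-fold apart. Opposite directions alone were more common: 41 genes were higher on high-fat for A/J but lower for C57BL/6J, and 9 the reverse. The share of all genes that met both conditions was not counted. Whatever the directions, 12 of the 82 genes had a gap of that size with the A/J ratio higher, and 2 with it lower. All measured genes gave 706 and 714 of 8036, so, counting both, such gaps were about as frequent over the whole array. The A/J log2 diet ratio minus the C57BL/6J one was 0.88 for Ndufb6, 0.75 for Uqcrh, 0.73 for each of Atp5e, Atp5g1, Ndufb2 and Uqcr11, 0.66 for Ndufa2, 0.62 for Cox8a, and 0.60 for Cox5b and Ndufaf5. For Cox4i2 it was -0.71, with the A/J high-fat signal under the floor. In the first 10, high-fat was higher than low-fat in A/J and lower in C57BL/6J. For Ndufa2 and Ndufaf5 the A/J log2 diet ratio was only 0.004 and 0.012. For Cox5b the opposite directions rest on the set that stood for the gene. Its other 4 measured sets gave differences of 0.35, 0.08, 0.03 and -0.02, and 3 of those 4 were lower on high-fat in both strains. The other measured set gave 0.17 for Ndufb6, 0.53 for Ndufb2 and 0.68 for Cox8a, and the remaining genes had 1 set. With 1 array in each group the difference was not tested.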

How the results depend on the processing

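Without scaling, the median log2 ratio of the genes was -0.013 for A/J diet (all genes -0.03), -0.35 for C57BL/6J diet (all genes -0.15), -0.044 for strain on the low-fat diet (all genes 0.20) and 0.32 for strain on the high-fat diet (all genes 0.32), and the difference of diet ratios was 0.35 (all genes 0.12). Relative to all genes, the medians ranged over the 11 alternatives from 0.01 to 0.03, from -0.22 to -0.15, from -0.27 to -0.13, from -0.01 to 0.07 and from 0.19 to 0.25 in the same order. The count of genes called for strain was 2 as reported. It was 1 (Ndufa12) with quantile normalisation, no scaling, a floor of 50, or a mean signal of at least 2000. That last setting was chosen after seeing the data. The count was also 1 with the mean of all probe sets or with shared probe sets left out. With either of them, the gene called was neither Ndufa12 nor Ndufb1. With the mean of all sets, their limma adjusted p-values were 0.152 and 0.0924. With shared sets left out, Ndufa12 had no measured set and Ndufb1 had a limma adjusted p of 0.061. Ndufc2, an accessory subunit of complex I, then stood on its less bright set. The log2 ratio of that set, A/J over C57BL/6J, was -0.85 on low-fat and -1.02 on high-fat. Its brightest set was also lower in A/J, at -0.54 and -0.28. The count was 2 with a mean signal of at least 200 (Ndufa12 and Ndufs4) or assembly factors left out. It was 3 with a pseudocount of 50 and 4 with an intensity trend. It was 0 with a floor of 200 or no filter on mean signal. Strain as the only factor gave 0 with all 4 arrays, and from 0 to 0 with an array left out in that same fit, as 3 arrays are too few to fit strain and diet together with an error. For diet the count was 0 throughout. The count of genes highest on C57BL/6J low-fat, 53 as reported, ran from 41 (no scaling, where all genes gave 19.7%) to 53. Causes were not tested. No paired analysis was possible because each group has 1 array and the labels carry no replicate numbers. Genes near the floor, such as Ndufb1, Cox4i2 and Cox6b2, are limited by signal over background.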
